A study of Mus musculus with 60 samples.

Results

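DNA replication genes were followed through the culture, passaging and maturation of IL6-treated mouse hepatocytes and through the regrowth of mouse liver after partial hepatectomy (PHX). The set held 40 genes, chosen by function from a list of DNA replication and E2F genes, out of the 19355 gene symbols measured in cells and the 17473 measured in liver. All 40 were listed in both tables. The cell table held 33 libraries in 11 groups of 3: primary Hepatocytes, hepatocytes cultured with IL6 for 3 days (IL6-iHPCs-D3 (P0)) or 14 days (IL6-iHPCs-D14 (P0)), 4 passaged groups from 3 lines of these induced hepatic progenitor cells (IL6-iHPCs), namely clone-1 (P20), which is 1 clone, mouse-2 at P10, and mouse-1 at both P10 and P35, and the IL6-iMHs, mature hepatocyte-like cells carrying the same 4 labels and made in a maturation medium. The liver table held 18 libraries in 6 groups of 3: Normal liver and liver at 6 h, 24 h, 3 days, 7 days and 14 days after PHX. All samples carried the labels WT and C57BL/6, the mice were 8 to 10 weeks old, and IL6 was used at 30 ng/ml in a medium that also held EGF and HGF. The mouse-1 groups are 1 line at 2 passages and the others are 1 line each, so mouse, clone and passage cannot be told apart between lines. The 3 libraries of a cell group were technical repeats, and nothing in the labels says that the 3 livers of a group came from separate animals, so the p-values below measure the spread between these libraries, which may be technical.

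A cell copies its genome once per cycle. In G1 the origin recognition complex, Cdc6 and Cdt1 load the Mcm2-7 helicase ring on DNA, which is called licensing, and geminin (Gmnn) blocks a second loading. At the start of S phase Mcm10, Cdc45 and the GINS complex switch the helicase on, primase and the polymerases copy the strands on the sliding clamp Pcna, and flap nuclease and ligase join the lagging strand. E2F transcription factors drive many of these genes at the G1 to S transition, with E2f1 and E2f2 acting as activators and E2f7 and E2f8 as repressors. Adult hepatocytes are mostly quiescent and polyploid, and they re-enter the cycle after PHX.

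Levels are given in FPKM, fragments per kilobase of transcript and per megaread (M) mapped, as the authors computed them. Library depth was 49.3 to 88.9 M for the cells and 52.1 to 79.3 M for the livers. Depth and read counts were recovered from the FPKM steps, and whether their unit is a read or a read pair is not given in the sources used here. The summed FPKM of 6 hepatocyte markers was 73602 to 79470 in Hepatocytes, 590 to 9346 in all IL6-iHPC libraries and 59278 to 80459 in IL6-iMH libraries, and 6 of 8 macrophage markers were at 0 in both IL6-iHPC lines at P10. Red blood cell markers summed to 107 to 122 FPKM in Hepatocytes and 0.131 to 1.03 in all other cell libraries, lymphocyte markers to 5.25 to 5.59 and at most 0.189, endothelial markers to 17.3 to 19.5 and 0.337 to 10.2, and macrophage markers to 11.6 to 13.7 and 0.957 to 40.7. Cholangiocyte and progenitor markers summed to 0.865 to 1.67 in Hepatocytes, 765 to 912 in clone-1 (P20) IL6-iHPCs, 515 to 525 in those of mouse-1 (P35) and 27.1 to 142 in the other cultured libraries. Stellate cell markers summed to 0.635 to 0.948 in Hepatocytes, 0.518 to 1.01 at D3, 24.7 to 25.9 at D14, 10.2 to 19.4 in mouse-1 (P10), 3.43 to 5.25 in the other passaged IL6-iHPCs and 0.0634 to 0.611 in IL6-iMHs. The part of these markers in the results below was not tested. Reads of 4 Y-linked genes numbered 6575 to 9095 in the IL6-iHPCs labelled clone-1 (P20) and 0 in the IL6-iMHs labelled clone-1 (P20), so these libraries did not match each other. They also numbered 994 to 1550 in Hepatocytes, 9185 to 18444 in the P0 cultures and 0 to 2 in every mouse-1 and mouse-2 library. Comparisons of mouse-1 or mouse-2 cells with Hepatocytes or the P0 cultures therefore also differ in Y-linked reads. In them donor and passage cannot be told apart, and they are not steps of 1 culture. Against Hepatocytes, the median of all 12328 genes tested was higher by 1.14 on the log2 scale at D3, 1.00 in the D14 cultures, 0.66 in mouse-1 (P10), 0.76 in mouse-2 (P10), 1.05 in the clone-1 line and 1.16 in mouse-1 (P35). A rise of the replication genes against Hepatocytes is therefore read beside that shift, and counts after quantile normalization, which left shifts of 0.05 to 0.14, are given with it. In bulk samples fewer cells of a type and less RNA per cell cannot be told apart.

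The promoters of 34 members were matched by symbol to RefSeq (GRCm38.p6). The 250 bases before the start site were searched on both strands for TTTCCCGC, TTTCGCGC, TTTGCCGC and TTTGGCGC, 4 spellings of the element that E2F factors bind. Of these 34 genes 11 held at least 1 of these words in a promoter (32.4%), against 2.16% of 27025 genes with a promoter in the same table. These were Mcm5, Mcm6, Mcm7, Cdc6, Orc1, Gins3, Rfc3, Pola1, Uhrf1, Dnmt1 and E2f7. With TTTCCCGC and TTTGGCGC alone the shares were 20.6% and 1.51%. Within 100 bases of the start they were 11.8% and 0.98%. Of the 6 promoters below, 4 belong to genes whose values are given in the results and show the words in capitals. Those of Mcm10 and E2f8, which were called lower than in Hepatocytes at D3, where most members were higher, hold none of these words in this window. The same was true of 23 of the 34 genes, 14 of which were called higher at D3. Of the 11 genes with a word 10 were called higher there, as were 53.9% of all genes tested. The difference between the 2 groups of members was not tested. Each reads 5′ to 3′ on the gene's own strand, at chr1:128359706-128359955 (minus), chr8:75109259-75109508 (plus), chr11:98907901-98908150 (plus), chr8:95633309-95633558 (plus), chr2:5012792-5013041 (minus) and chr7:48881597-48881846 (minus).
Mcm6: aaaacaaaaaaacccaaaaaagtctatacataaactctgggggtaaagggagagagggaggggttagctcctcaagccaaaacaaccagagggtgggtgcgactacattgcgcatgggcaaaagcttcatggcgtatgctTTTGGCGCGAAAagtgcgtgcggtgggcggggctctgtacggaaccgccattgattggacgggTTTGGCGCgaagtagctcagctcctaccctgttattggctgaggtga
Mcm5: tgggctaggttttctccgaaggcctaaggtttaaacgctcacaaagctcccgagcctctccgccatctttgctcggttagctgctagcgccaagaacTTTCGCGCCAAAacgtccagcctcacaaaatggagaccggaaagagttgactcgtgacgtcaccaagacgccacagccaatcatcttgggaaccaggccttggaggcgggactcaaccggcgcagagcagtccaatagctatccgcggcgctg
Cdc6: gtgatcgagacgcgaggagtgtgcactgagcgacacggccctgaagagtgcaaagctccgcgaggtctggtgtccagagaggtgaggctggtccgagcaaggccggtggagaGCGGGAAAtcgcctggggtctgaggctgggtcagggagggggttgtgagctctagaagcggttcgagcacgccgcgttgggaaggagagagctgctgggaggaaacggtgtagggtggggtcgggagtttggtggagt
Gins3: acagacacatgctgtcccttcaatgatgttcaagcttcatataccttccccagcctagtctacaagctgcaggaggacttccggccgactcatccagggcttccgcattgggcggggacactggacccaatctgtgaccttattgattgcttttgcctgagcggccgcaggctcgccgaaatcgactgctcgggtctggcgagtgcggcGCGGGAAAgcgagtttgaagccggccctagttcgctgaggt
Mcm10: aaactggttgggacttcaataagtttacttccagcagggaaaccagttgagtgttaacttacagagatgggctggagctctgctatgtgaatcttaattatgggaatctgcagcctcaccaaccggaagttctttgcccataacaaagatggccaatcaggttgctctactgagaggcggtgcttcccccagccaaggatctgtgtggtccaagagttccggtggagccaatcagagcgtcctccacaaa
E2f8: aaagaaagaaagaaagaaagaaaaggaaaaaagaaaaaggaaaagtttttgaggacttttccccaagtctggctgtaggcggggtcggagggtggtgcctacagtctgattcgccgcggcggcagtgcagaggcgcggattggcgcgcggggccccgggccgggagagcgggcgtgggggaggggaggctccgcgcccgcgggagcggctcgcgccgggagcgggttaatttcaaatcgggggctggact
In Mcm6 the words start 110, 106 and 47 bases before the start site, in Mcm5 153 and 149, in Cdc6 138 and in Gins3 41. A match is a string of letters and not a bound site.

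Most replication genes were scarce in primary Hepatocytes. Of the 40, 14 averaged under 1 FPKM there and only Mcm10, Gins4, Pcna and Tk1 averaged 10 FPKM or more. In mouse-1 (P35) IL6-iHPCs, 35 averaged 10 FPKM or more and none under 1. The same line held the highest group mean for 35 of the 40 genes, clone-1 (P20) for 4 and Hepatocytes for 1, Mcm10. Shares of all genes were not taken for these counts. The median of all genes tested was itself 1.16 higher on the log2 scale in mouse-1 (P35) than in Hepatocytes. The counts are therefore not read as particular to the members. The FPKM of all 40 genes summed to 150 to 152 in Hepatocytes, 344 to 370 at D3, 245 to 254 at D14, 162 to 185 in mouse-1 (P10), 223 to 244 in mouse-2 (P10), 1412 to 1457 in clone-1 (P20) and 1981 to 2003 in mouse-1 (P35). In the IL6-iMHs the sums were 165 to 239, above the Hepatocyte range in all 12 libraries. Rrm2 alone was 21.6 to 72.9 FPKM in these 12 libraries and 0.983 to 1.36 in Hepatocytes, so the sums lean on that gene. The IL6-iMH sums lay below those of the IL6-iHPCs of the same label for clone-1, mouse-1 (P35) and mouse-2 (P10). They were 165 to 170 in mouse-2 (P10), and in mouse-1 (P10) they lay above the IL6-iHPC sums. In mouse-1 (P10) Rrm2 averaged 32.5 FPKM in IL6-iHPCs and 56.0 in IL6-iMHs, while 28 of the 40 members had a change below 0.

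**Figure D1:**
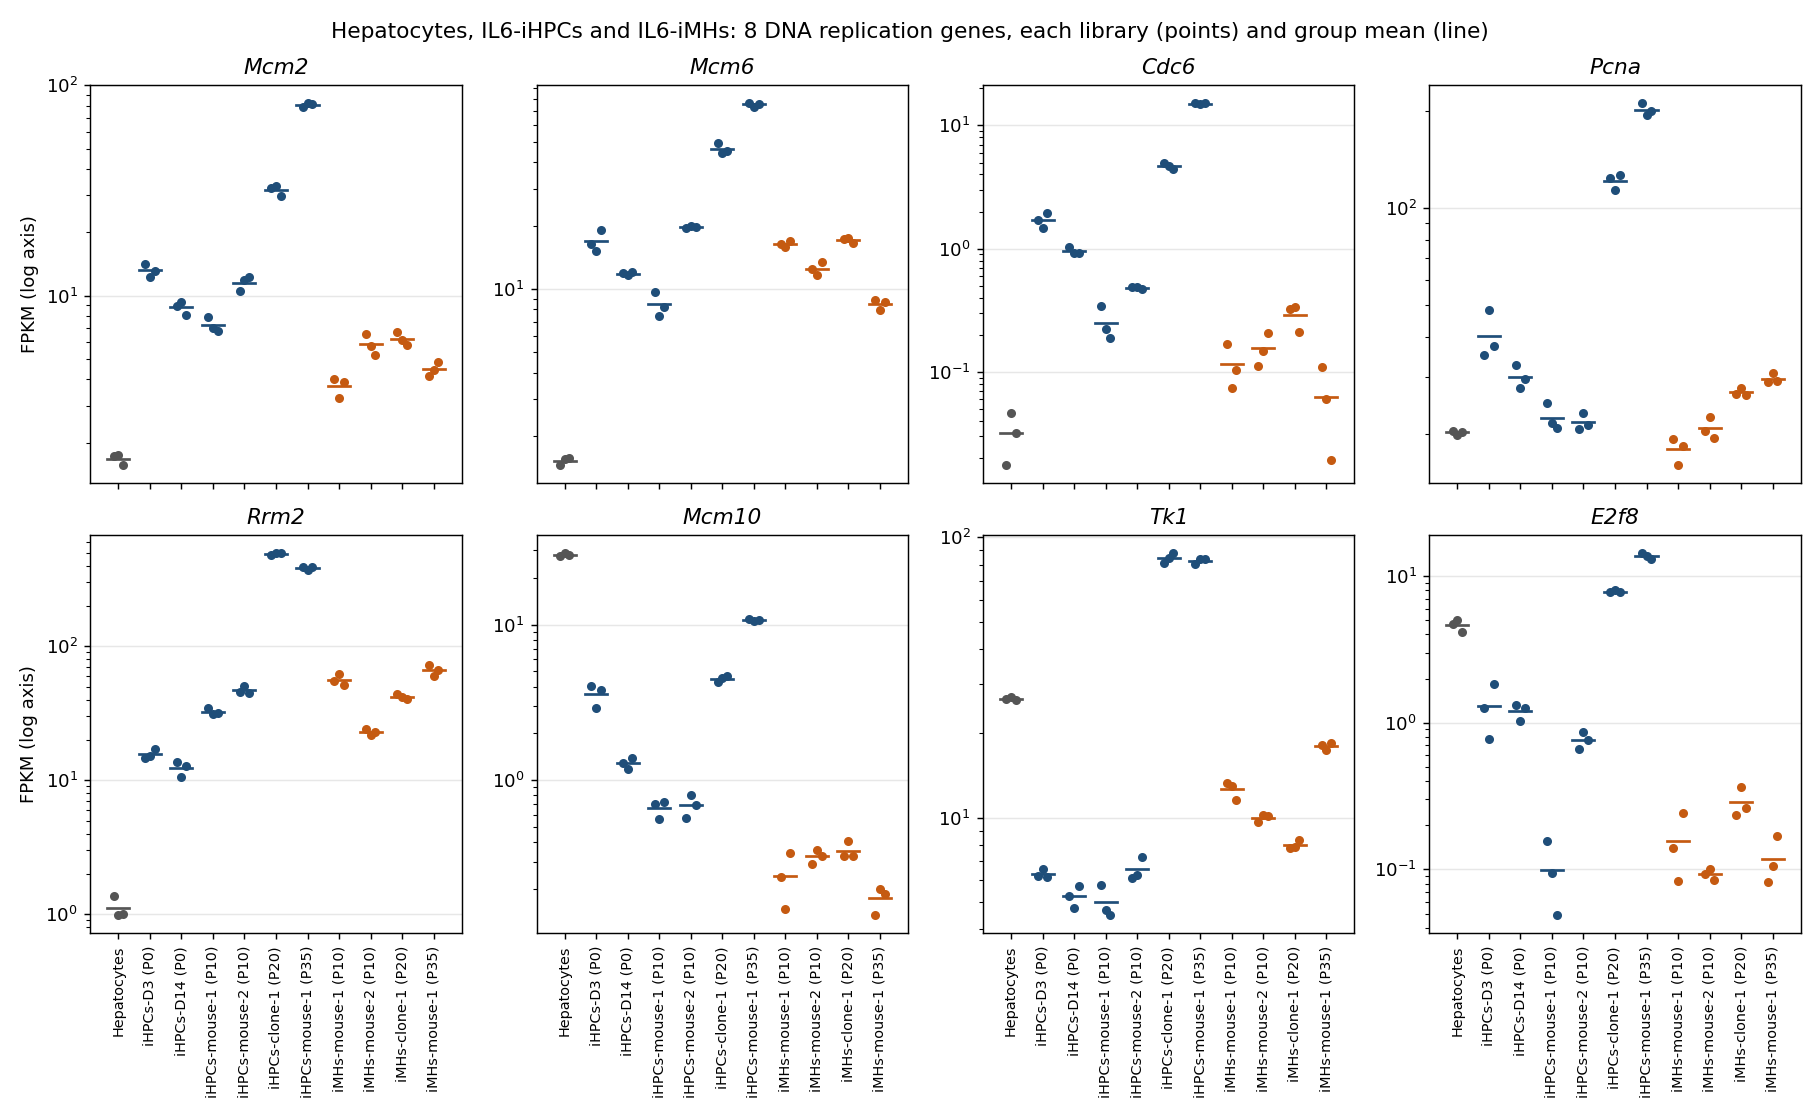
FPKM (log axis) of 8 DNA replication genes in the 33 cell libraries, with a point for each library and a line at each group mean. Mcm2, Mcm6, Cdc6, Pcna and Rrm2 were highest in the P20 and P35 IL6-iHPC lines, while Mcm10 was highest in Hepatocytes (27.7 to 28.7 FPKM).

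IL6-iHPCs after 3 and 14 days were first compared with primary Hepatocytes. At D3, 28 of the 40 genes were called higher, where a call needed an adjusted p under 0.05 and a 2-fold change on the log2(FPKM + 1) scale, and 3 were called lower, against 53.9% and 12.1% of all genes tested. The members' median change was 1.44, beside 1.14 for all genes. After quantile normalization 7 were higher and 6 lower, against 25.8% and 22.3% of all genes, with medians of 0.40 and 0.11. All 11 licensing genes were among the 28, and 3 of them, Mcm4, Mcm6 and Mcm7, were still called after quantile normalization. Mcm6 was 1.46, 1.56 and 1.57 FPKM in Hepatocytes and 16.4, 15.2 and 19.0 at D3 (log2 change 2.82, SE 0.0733, adjusted p = 9.3e-25 by limma). Mcm4, another ring subunit, was 0.710, 0.751 and 0.548 and then 10, 9.88 and 11.3 FPKM (log2 change 2.77, SE 0.0808, adjusted p = 1.4e-23 by limma). No library of either group overlapped the other for these subunits. Cdc6, the loader of the ring, was close to absent in Hepatocytes, at 0.0176, 0.0463 and 0.0318 FPKM from 4 to 12 reads a library, and reached 1.72, 1.46 and 1.93 at D3. Orc1, the largest origin recognition subunit, rested on 2 to 4 reads in Hepatocytes and on 268 to 361 at D3.

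Behind licensing, 5 of 5 polymerase genes, both joining genes and all 4 chromatin copying genes were called higher at D3, with median changes of 1.68, 2.17 and 2.54, where 53.9% of all genes were and their median was 1.14. After quantile normalization Pold1, Chaf1b and Uhrf1 were the ones of these still called. Pold1, the catalytic subunit of polymerase delta, was 1.24, 1.25 and 1.06 FPKM in Hepatocytes and 14.6, 12 and 14.3 at D3 (log2 change 2.74, SE 0.0851, adjusted p = 6.9e-23 by limma). Uhrf1, which brings the maintenance methylase Dnmt1 to newly copied DNA, was 0.269, 0.243 and 0.197 and 6.53, 4.98 and 7.88 FPKM (log2 change 2.58, SE 0.103, adjusted p = 3.5e-20 by limma). Both groups of libraries were again apart. None of the 4 clamp and loader genes was called, and their changes ran from -0.43 (Rfc5) to 0.97 (Rfc3). Helicase activation split, with Cdc45 (1.22), Gins2 (1.94) and Gins3 (1.20) higher, Mcm10 (-2.68) lower, and Gins1 (0.36) and Gins4 (0.43) below the fold limit. Gins3 was 0.0977, 0.144 and 0.191 FPKM in Hepatocytes, 1.52, 1.56 and 1.79 at D3 and 3.62, 3.07 and 3.70 in mouse-1 (P35). Under quantile normalization the changes of Cdc45, Gmnn, Mcm5, Orc6, Pola2 and Prim1, all called higher before it, turned to below 0 at D3. After it Gins1 and Rfc5 were called lower, and Gins2 and Gins3 were no longer called.

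Between D3 and D14 the genes were lower on balance. At D14, 21 were called higher than in Hepatocytes and 3 lower, against 50% and 12.9% of all genes, with medians of 1.02 and 1.00, and after quantile normalization 3 were higher and 10 lower, against 25.3% and 22.6%. Compared directly, 37 of 40 were lower at D14 than at D3 (median -0.38, all genes -0.16), and 4 were called lower against 5.05% of all genes: Chaf1b, Gins1, Gmnn and Prim1. After quantile normalization 3 were called lower, against 4.53% of all genes, with medians of -0.28 and -0.05. The voom fit and the pseudocount of 0.1 each called 7 lower, and with no fold limit 32 were. These shares of all genes do not apply to the last 3 counts. For the 37 of 40 lower by sign alone, the share of all genes was not taken. Gmnn, the licensing inhibitor, went from 9.49, 12 and 12.3 FPKM at D3 to 4.98, 3.32 and 3.86 at D14 (log2 change -1.29, SE 0.112, adjusted p = 3.7e-11 by limma), a spread that took in the Hepatocyte values of 4.88, 4.49 and 4.55. Prim1, the catalytic primase subunit, went from 6.34, 6.40 and 6.77 to 2.15, 2.09 and 2.13 FPKM (log2 change -1.26, SE 0.112, adjusted p = 5.6e-11 by limma).

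In mouse-1 (P10) 8 genes were higher than in Hepatocytes and 4 lower, against 40% and 12.6% of all genes, and the members' median change (0.41) was under that of all genes (0.66). In mouse-2 (P10) 14 were higher and 4 lower, against 42.8% and 13.1%, with medians of 0.73 and 0.76. Quantile normalization gave 1 higher and 11 lower in mouse-1, against 22.6% and 19.5% of all genes, and 6 higher and 9 lower in mouse-2, against 23.1% and 20.5%. The voom fit on recovered reads called 19 and 25 higher, and a pseudocount of 0.1 gave 17 and 25. The shares of all genes above do not apply to these counts. Cdt1, Dnmt1, Gins2, Mcm2, Mcm4, Mcm6, Pold1 and Rrm2 were higher in all 4 passaged groups, as were 31.4% of all genes in these comparisons, which share the Hepatocyte libraries, although Cdt1 turned to below 0 in mouse-2 after quantile normalization (1.10 before and -0.15 after), and only Rrm2 was still called in mouse-1 (P10) after it. The 4 genes called lower in both P10 lines were Mcm10, E2f8, Tk1 and Gins1. Gins1, a GINS subunit, was 2.95, 3.46 and 4.54 FPKM in Hepatocytes, 0.884, 0.701 and 0.916 in mouse-1 (P10) and 0.513, 0.711 and 1.36 in mouse-2 (P10).

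Against the D14 cultures, 7 genes were lower in mouse-1 (P10) and 1 higher, against 11.1% and 5.17% of all genes, while the voom fit and the pseudocount of 0.1 each gave 20 lower there and quantile normalization 1. In mouse-2 (P10) 1 was higher and none lower by limma, against 4.88% and 8.46%, although 34 members had an unadjusted p under 0.05 in either direction and the voom fit on recovered reads called 4 lower. The D14 cultures held Y-linked reads and the P10 lines held none, so donor and passage cannot be told apart in these comparisons. The gene called higher in both was Rrm2, the small subunit of ribonucleotide reductase, which makes deoxynucleotides. Its levels were 13.6, 10.6 and 12.8 FPKM at D14, 34.5, 31.2 and 31.8 in mouse-1 (P10) and 45.9, 50.6 and 44.8 in mouse-2 (P10). Rrm1, the large subunit, went the other way and was not called, with 10.6, 9.85 and 10.9 FPKM at D14, 5.77, 4.48 and 4.59 in mouse-1 and 7.79, 7.42 and 7.31 in mouse-2. Between the P10 lines Mcm6 and Uhrf1 were called higher in mouse-2 than in mouse-1, against 2.22% of all genes. Only Mcm6 was called after quantile normalization, and leaving out each library in turn gave 1 to 3. The voom fit and the pseudocount of 0.1 each called 7 higher. Mcm6 was 9.69, 7.44 and 8.21 FPKM in mouse-1 and 19.5, 20 and 19.8 in mouse-2 (log2 change 1.14, SE 0.0733, adjusted p = 1.5e-13 by limma). Of 20 mitosis genes, 12 were higher in mouse-2 (P10) than in mouse-1 (P10), against 2.22% of all genes. Against Hepatocytes 17 of them were higher and 1 lower in mouse-2 (P10) and none higher and 1 lower in mouse-1 (P10), against 42.8% and 40% of all genes higher, and after quantile normalization 9 were higher in mouse-2 and none in mouse-1.

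The late groups were clone-1 (P20) and mouse-1 (P35). In clone-1 (P20) 37 of 40 were higher than in Hepatocytes and 1 lower, against 51.5% and 10.4% of all genes, with a median of 2.68 beside 1.05. In mouse-1 (P35) 39 were higher and 1 lower, against 54.3% and 11.7%, with a median of 3.38 beside 1.16. After quantile normalization 28 and 34 were still higher and 1 lower in each, against 22.4% and 25.3% of all genes higher and 19.1% and 20.6% lower. The gene called lower in both was Mcm10, and the 2 not called in clone-1 were Orc1 (1.00) and E2f8 (0.66).

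The changes past 4.5 in both late lines were those of Rrm2, Uhrf1 and Mcm4. Rrm2 went from 1.36, 0.983 and 1.00 FPKM in Hepatocytes to 481, 494 and 495 in clone-1 (P20) and to 389, 374 and 394 at P35 of mouse-1 (log2 change 7.86, SE 0.0847, adjusted p = 3.9e-34 by limma in clone-1). It was the most abundant member in both lines. Mcm7 was 6.34, 7.32 and 7.13 FPKM in Hepatocytes, 68.4, 67.4 and 70.6 in clone-1 and 128, 127 and 125 in mouse-1 (P35). Uhrf1 was 32.5, 30.6 and 29.5 and 72.5, 78.2 and 74.0 FPKM in the late lines, where it had been below 0.3 in every Hepatocyte library (log2 change 5.94, SE 0.103, adjusted p = 3.3e-29 by limma in mouse-1). Cdc6 was 4.95, 4.66 and 4.41 in clone-1 and 15.1, 14.8 and 15.2 FPKM in mouse-1 (P35) (log2 change 3.96, SE 0.0584, adjusted p = 6.6e-31 by limma against Hepatocytes).

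Clamp and loader genes, none of which had been called at D3, were called in both of these lines, as were 51.5% and 54.3% of all genes. After quantile normalization Pcna and Rfc4 were still called in clone-1, but Rfc3 and Rfc5 only in mouse-1 (P35). Pcna, the sliding clamp, was 20.4, 19.8 and 20.3 FPKM in Hepatocytes, 124, 114 and 127 in clone-1 and 212, 195 and 200 in mouse-1 (P35) (log2 change 3.27, SE 0.0880, adjusted p = 1.7e-24 by limma in mouse-1). Rfc3, Rfc4 and Rfc5, subunits of the loader that opens the clamp, changed by 2.40, 2.63 and 2.26 in mouse-1 (P35). Lig1, the ligase that seals Okazaki fragments, was 0.707, 0.705 and 0.812 and then 45.7, 47.7 and 47.6 FPKM (log2 change 4.79, SE 0.0826, adjusted p = 2.9e-29 by limma). Tyms, thymidylate synthase, was 1.60, 1.68 and 2.16 and 16.2, 14.8 and 15.4 FPKM (log2 change 2.55, SE 0.0698, adjusted p = 2.5e-24 by limma), after values of 1.81, 1.72 and 1.85 at D3. Of the members not yet given, Mcm2, which the Cdc7 kinase phosphorylates in the ring, changed by 4.93, the loading factor Cdt1 by 3.98 and the origin subunit Orc6 by 3.36. Pola1 and Pola2, of the polymerase that starts each strand, changed by 2.31 and 2.74, and Pole, the leading strand polymerase, by 3.92. Fen1, the flap nuclease, changed by 3.88, and Chaf1a and Chaf1b, which place histones on new DNA, by 4.50 and 4.25. On the log2(FPKM + 1) scale Orc1 changed by 1.92, from a mean of 0.0123 to one of 2.82 FPKM, a scale that understates the fold of so low a gene, and Gins4 by 1.38. The lowest mouse-1 (P35) library lay above the highest clone-1 library for 35 members, and the reverse held for Cdc45 and Rrm2, against 44.0% and 29.3% of all genes.

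The same mouse line could be compared at P10 and P35. All 40 genes were higher at P35, against 24.8% of all genes, with a median change of 3.14 beside 0.36, and 39 remained so after quantile normalization, against 14.3% of all genes, E2f2 being the exception. The changes ran from 1.25 for E2f2 to 5.0 for Mcm5 and 5.0 for Uhrf1. Mcm5 was 0.946, 0.711 and 0.763 FPKM at P10 and 56.2, 58.5 and 55.9 at P35 (log2 change 5.0, SE 0.107, adjusted p = 3.9e-26 by limma). Its P10 values lay below those of Hepatocytes, at 1.72, 1.41 and 2.03. Mcm3, another ring subunit, was 2.80, 2.72 and 2.49 and 73.3, 76.1 and 76.4 FPKM (log2 change 4.38, SE 0.0809, adjusted p = 1.3e-27 by limma). E2f7 rested on 7 to 12 reads a library at P10, at 0.0432, 0.0415 and 0.0237 FPKM, and was 7.58, 7.52 and 7.95 at P35. In mouse-1 (P10) 12 members averaged under 1 FPKM, and the log2(FPKM + 1) scale understates the fold of such genes. The 20 mitosis genes summed to 17.8 to 22.5 FPKM at P10 and 706 to 723 at P35, and 19 of them were called higher.

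**Figure D2:**
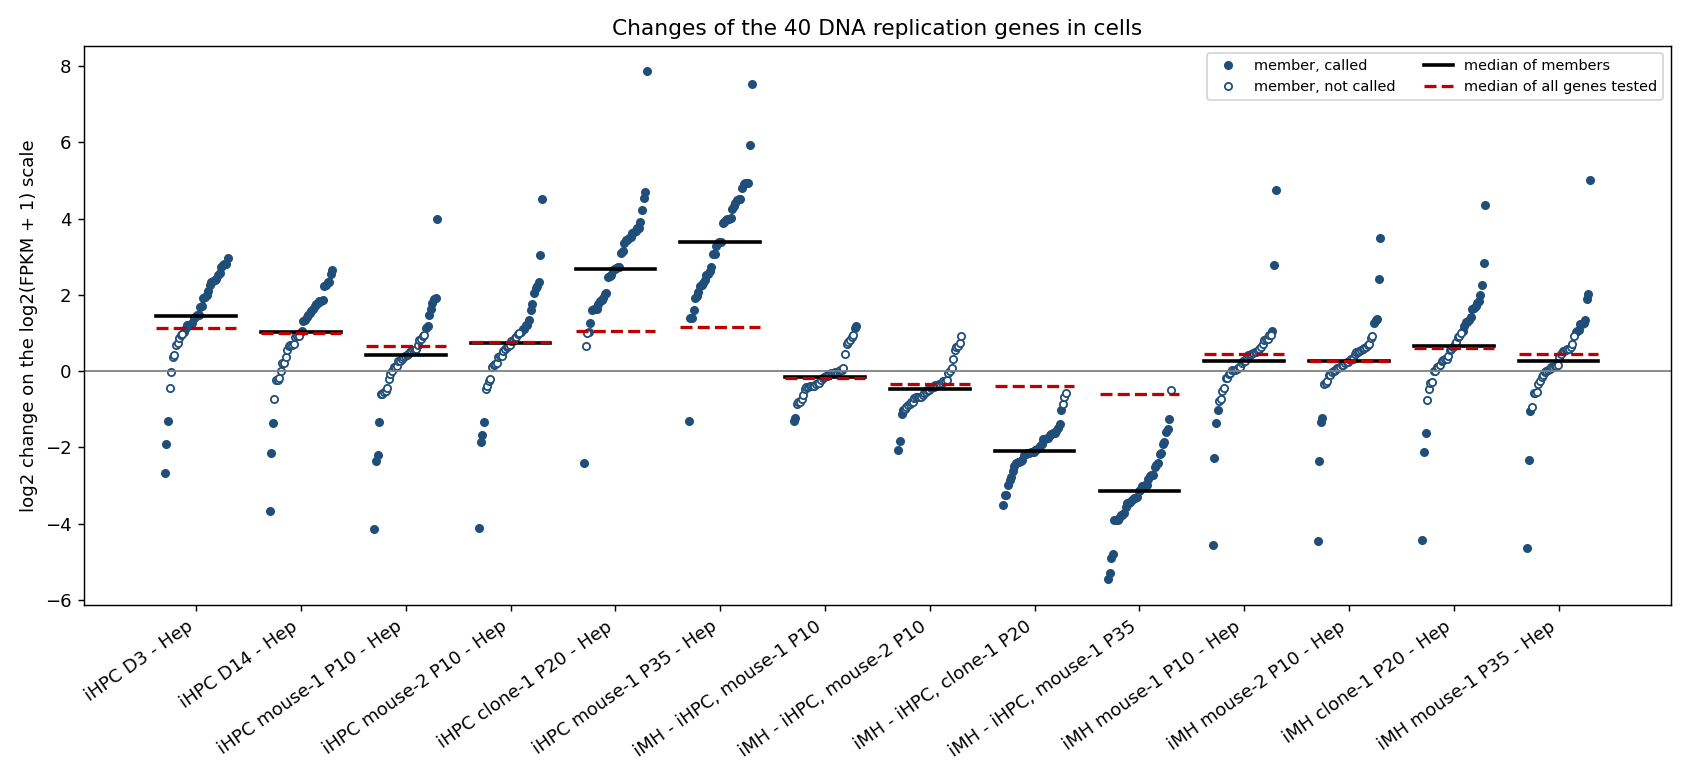
Change of each of the 40 genes on the log2(FPKM + 1) scale (points, filled where called) in 14 comparisons of the cell table, with the median of the members (black) and of all 12328 genes tested (red dashes). The members' median lay above the red line in clone-1 (P20) and mouse-1 (P35) IL6-iHPCs and below it on maturation under those labels.

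Maturation was followed by comparing IL6-iMHs with the IL6-iHPCs of the same label. In mouse-1 (P10) Dnmt1 and Mcm4 were lower and Gmnn and Tk1 higher, against 15.4% of all genes lower and 9.59% higher. In mouse-2 (P10) Dnmt1, Mcm4, Rrm2 and Uhrf1 were lower, against 28.6%. These counts depended on the scale, and the voom fit called 10 lower in mouse-1 (P10) and 17 in mouse-2 (P10), the pseudocount of 0.1 8 and 16. Quantile normalization gave 6 higher and none lower in mouse-1 (P10), against 11.2% and 11.4% of all genes, and 6 higher and 3 lower in mouse-2 (P10), against 15.6% and 16.6%. E2f1, Gins4, Gmnn, Rfc4 and Tk1 were among the 6 in both. In the libraries labelled clone-1 (P20) 37 of 40 were lower, against 17.7% (median -2.09, all genes -0.38), and in mouse-1 (P35) 39 of 40, against 35.1% (median -3.14, all genes -0.59). After quantile normalization 35 and 36 were lower, against 8.63% and 16.7% of all genes. Dnmt1, the maintenance methylase, and Mcm4 were the 2 members lower under all 4 labels, as were 3.33% of all genes, but not in mouse-1 (P10) after quantile normalization. The clone-1 comparison rests on IL6-iMH libraries whose Y-linked reads differ from those of the IL6-iHPCs, and the mouse-1 (P35) comparison does not use them.

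On maturation at P35 the ring subunits Mcm5 and Mcm3 had the largest falls on the log2(FPKM + 1) scale, which understates those of lower genes such as Cdc6 and Orc1. Mcm5 went from 56.2, 58.5 and 55.9 FPKM to 0.223, 0.290 and 0.454 in the IL6-iMHs (log2 change -5.46, SE 0.107, adjusted p = 2.8e-27 by limma), and Mcm3 from 73.3, 76.1 and 76.4 to 0.876, 1.01 and 0.989 (log2 change -5.28, SE 0.0809, adjusted p = 9.1e-30 by limma). Neither set of libraries came near the other. Cdc6 went from 15.1, 14.8 and 15.2 to 0.109, 0.0606 and 0.0192 FPKM. Rrm2 kept a high level, going from 389, 374 and 394 to 72.9, 60.2 and 67.0 (log2 change -2.52, SE 0.0847, adjusted p = 1.3e-21 by limma). The exception was E2f1, with 16.9, 16.5 and 15.7 FPKM in IL6-iHPCs and 10.1, 11.2 and 12.8 in IL6-iMHs (log2 change -0.50, SE 0.0897, adjusted p = 9.4e-06 by limma), a fall below the fold limit. In clone-1 (P20) the members not called were E2f1 (-0.58), Orc1 (-0.87) and Gins3 (-0.67).

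Whether the change on maturation differed between P35 and P10 of mouse-1 was tested as an interaction. At P10 12 of the 40 members lay above their IL6-iHPC mean after maturation. The change was more negative at P35 than at P10 for all 40, against 24.1% of all genes called in that direction, with a median difference of -3.11 beside -0.36, and 38 were called after quantile normalization, against 14.2%. The differences ran from -5.32 for Mcm5 and -4.91 for Uhrf1 to -1.11 for E2f2. The 2 maturation comparisons do not share libraries with each other. Their IL6-iHPC libraries are those of the P35 against P10 comparison, where all 40 members were higher at P35 (median 3.14). The interaction therefore largely restates that starting difference and is not a separate result. The summed level of the members was 162 to 185 FPKM before and 189 to 202 after maturation at P10, and 1981 to 2003 before and 220 to 235 after it at P35. These sums include Rrm2, which averaged 32.5 FPKM before and 56.0 after maturation at P10, and 386 and 66.7 at P35.

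The matured cells were then set against primary Hepatocytes. The counts higher and lower were 3 and 4 in mouse-1 (P10), against 25.4% and 7.25% of all genes, 5 and 4 in mouse-2 (P10), against 17.6% and 7.63%, 15 and 3 in clone-1 (P20), against 35% and 10.4%, and 10 and 3 in mouse-1 (P35), against 27.1% and 8.02%. The members' medians were 0.27, 0.26, 0.67 and 0.26 beside 0.45, 0.26, 0.60 and 0.45 for all genes. After quantile normalization 2, 2, 5 and 3 members were higher and 9, 4, 7 and 8 lower, against 12.1%, 11.4%, 17.4% and 14.0% of all genes higher and 10.3%, 9.39%, 15.8% and 11.9% lower. The voom fit called 14, 13, 25 and 16 higher, counts to which these shares of all genes do not apply. Rrm2 and Mcm6 were higher in all 4 groups of IL6-iMHs, as were 12.3% of all genes over the same shared Hepatocyte libraries, under both scalings. Rrm2 held 54.8, 61.9 and 51.2 FPKM in mouse-1 (P10), 24.2, 21.6 and 23.0 in mouse-2 (P10), 43.9, 41.5 and 40.7 in clone-1 (P20) and 72.9, 60.2 and 67.0 in mouse-1 (P35) IL6-iMHs, each above the 1.36, 0.983 and 1.00 of Hepatocytes (log2 change 5.0, SE 0.0847, adjusted p = 4.5e-29 by limma for mouse-1 (P35)). Mcm6 ranged from 7.91 to 17.4 FPKM over the 12 IL6-iMH libraries and from 1.46 to 1.57 over Hepatocytes. Mcm10 and E2f8 were lower in all 4, as were 5.22% of all genes, also under both scalings.

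Mcm10, which holds the activated helicase together and lies at chr2:4989714-5012791 (minus strand, mm10), ran against the set. It was 27.7, 28.7 and 28.2 FPKM in Hepatocytes, from 7218 to 10113 reads. In the cultures it was 4.01, 2.90 and 3.81 after 3 days, 1.29, 1.18 and 1.39 after 14 days and 0.701, 0.563 and 0.724 in mouse-1 (P10). It was then 4.28, 4.54 and 4.66 in clone-1 (P20) and 10.8, 10.6 and 10.7 in mouse-1 (P35), and 0.136, 0.201 and 0.187 in the IL6-iMHs of that label. Every Hepatocyte library was thus above every other library of the table. The change was -2.68 at D3, -1.32 in mouse-1 (P35) IL6-iHPCs (log2 change -1.32, SE 0.0717, adjusted p = 7.5e-17 by limma) and -4.64 in their IL6-iMHs. Between P10 and P35 it rose with the other members (2.82), and it fell with them on maturation (-3.32). No other annotated gene shares its exonic bases.

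E2f8 and Tk1, the thymidine salvage kinase, were the other members called lower than in Hepatocytes both at D3 and at D14. Hepatocyte libraries were also those with the red blood cell and lymphocyte markers given above, and their part in the values of Mcm10, E2f8 and Tk1 was not tested. E2f8 was 4.69, 5.02 and 4.15 FPKM in Hepatocytes, 1.27, 0.778 and 1.85 at D3 and 0.155, 0.0940 and 0.0487 in mouse-1 (P10), and it rose to 14.3, 13.8 and 13.1 in mouse-1 (P35). Tk1 was 26.5, 27.0 and 26.2 FPKM in Hepatocytes, 6.20, 6.55 and 6.15 at D3, 81.1, 84.4 and 87.7 in clone-1 (P20) and 18.2, 17.4 and 18.4 in mouse-1 (P35) IL6-iMHs. Tk1 shares 83 exonic bases with Afmid on the opposite strand, a gene at 91.9 to 97.5 FPKM in Hepatocytes and 6.33 to 7.92 at D3, and its part in the Tk1 values was not tested. E2f8 shares 11.2% of its exonic bases with Gm2788. In all, 14 of the 40 members share exonic bases with another gene, and the share was over 50% for Gins2, Chaf1a and Fen1. Whether reads were counted by strand is not given in the sources used here, so reads of such pairs cannot be told apart.

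Among the E2F factors the activators E2f1 and E2f2 changed by 0.75 and 0.87 at D3, below the fold limit, and by 2.51 and 2.08 in mouse-1 (P35). E2f1 stayed above Hepatocytes in IL6-iMHs of mouse-1 (P35) (log2 change 2.01, SE 0.0897, adjusted p = 1.5e-18 by limma) and of clone-1 (1.35). After quantile normalization it was still called in mouse-1 (P35) but not in clone-1. The repressor E2f7 was 0.0261, 0.00916 and 0.0503 FPKM in Hepatocytes and 1.47, 0.788 and 1.09 at D3, and fell to 0.119, 0.0629 and 0.131 in mouse-1 (P35) IL6-iMHs. Between P10 and P35 of mouse-1 the median change was 3.02 for the 11 members with an E2F word in the promoter and 3.12 for the 23 without, and on maturation at P35 it was -3.01 and -3.12. This difference was not tested.

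Of a list of 60 other replication genes, those past the same threshold were counted. Against Hepatocytes, in the mean of the 4 passaged groups, 43 of 60 rose and 2 fell, against 48.1% and 11.3% of all genes, whose median was 0.93. After quantile normalization 17 rose and 3 fell, against 22.7% and 18.9%. Group by group, mouse-1 had 23 higher at P10 and 53 at P35, mouse-2 had 28 and clone-1 had 44, against 40%, 54.3%, 42.8% and 51.5% of all genes. In the same order quantile normalization gave 8, 33, 10 and 21 higher and 9, 1, 10 and 2 lower. Top2a, the topoisomerase that untangles sister chromatids, averaged 0.0750 FPKM in Hepatocytes and 61.3 in mouse-1 (P35), with a log2 change of 3.71 in that mean (SE 0.0902, adjusted p = 1.3e-25 by limma). Dbf4, the activator of the kinase that fires origins, changed by 3.41 and Ccna2, the S phase cyclin, by 3.38. The 2 that fell were Shmt1, a folate enzyme of thymidylate synthesis (-1.75), and Rnaseh2c, a subunit that removes ribonucleotides from DNA (-1.33).

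In liver, 35 of the 40 genes passed the filter of 1 FPKM in 3 libraries. Those below it were Orc1, Cdc6, Gins3, Pole and E2f7, the last resting on 13 to 14 reads a library in Normal liver. As in the cell table, Mcm10, Gins4, Pcna and Tk1 were the members at 10 FPKM or more in Normal liver. Of the 40 genes 24 had their highest mean at D3 after PHX, 10 at D7, 5 at 24 h and 1, Mcm10, in Normal liver, and 33 had their lowest at 6 h. Shares of all genes were not taken for these counts, and the median of all genes at 6 h was itself -0.28 against Normal liver. The median change of all 11114 genes tested was between -0.28 and 0.24 in each comparison below. The cell and liver tables were normalized separately, and levels were not compared between them.

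At 6 h after PHX the replication genes were lower. Of the 35 tested 11 fell, against 11.5% of all genes, with a median of -0.70 beside -0.28, and 5 fell after quantile normalization, against 6.06%. The voom fit and the pseudocount of 0.1 each called 21 lower, a count to which these shares of all genes do not apply. All 3 libraries at 6 h lay below all 3 of Normal liver for 31 of the 40 members, against 48.6% of all genes. Rfc5 was 5.71, 6.17 and 6.10 FPKM in Normal liver and 1.13, 1.42 and 1.32 at 6 h (log2 change -1.61, SE 0.176, adjusted p = 6.3e-06 by limma). Gmnn was 7.15, 10.3 and 6.90 and 1.4, 2.29 and 0.988 FPKM (log2 change -1.85, SE 0.319, adjusted p = 2.4e-04 by limma), and Prim1 was 2.81, 2.22 and 3.21 and 0.658, 0.668 and 0.736 (log2 change -1.14, SE 0.280, adjusted p = 0.00326 by limma). Mcm10 had the largest fall, from 17.8, 28.3 and 30.4 to 0.839, 1.31 and 1.53 FPKM (log2 change -3.55, SE 0.689, adjusted p = 5.9e-04 by limma). Tk1 was 15.8, 21.9 and 18.5 and 4.27, 5.01 and 3.89 FPKM, beside 50.2 to 55.2 and 24.4 to 27.7 for the overlapping Afmid. The others called were Gins1, Mcm6, Mcm7, Pola2, Rfc3 and Rfc4. Summed hepatocyte markers were 42190 to 49994 FPKM at 6 h and 52930 to 57844 in Normal liver. Macrophage markers summed to 43.8 to 92.3 at 6 h and 125 to 212 in Normal liver, endothelial markers to 69.0 to 80.9 and 110 to 116, lymphocyte markers to 0.856 to 1.47 and 2.15 to 3.76, and red blood cell markers to 38.2 to 143 and 87.1 to 149. Stellate cell markers summed to 74.0 to 98.4 at 6 h and 59.9 to 77.1 in Normal liver, and cholangiocyte and progenitor markers to 5.40 to 26.8 and 3.44 to 3.67. The part of these markers in the falls was not tested.

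From 6 h to 24 h 16 of the 35 genes rose, against 5.19% of all genes, with a median of 1.03 beside 0.24, and 8 rose after quantile normalization, against 2.47%. Mcm6 was 0.900, 0.991 and 0.709 FPKM at 6 h and 18.0, 3.62 and 4.98 at 24 h (log2 change 2.12, SE 0.398, adjusted p = 0.00110 by limma), and Mcm5 was 0.276, 0.631 and 0.376 and 13.2, 3.11 and 3.29 (log2 change 2.15, SE 0.360, adjusted p = 5.2e-04 by limma). Replicate 1 at 24 h was far above the other 2 of its group here and had the highest value of its group for all 40 members. The share of all genes highest in that library was not taken. The 40 genes summed to 306 FPKM in it and to 106 and 129 in the other 2, beside 146 to 168 in Normal liver. Without that library 8 genes rose from 6 h to 24 h. Against Normal liver Gins2, Mcm2 and Mcm5 were higher at 24 h and Mcm10 and Tk1 lower, against 3.74% and 4.16% of all genes, and without that library none was higher by limma. Gins2 was 0.800, 0.777 and 0.815 FPKM in Normal liver and 5.86, 2.10 and 1.97 at 24 h (log2 change 1.15, SE 0.250, adjusted p = 0.00304 by limma), so that each 24 h library was above each Normal one. Uhrf1 spread from 0.0823 to 3.61 FPKM within the 24 h group and was not called. At 24 h the hepatocyte marker sum was 30046 to 34590 FPKM, the macrophage sum 128 to 137, the red blood cell sum 26.8 to 46.4, the stellate cell sum 90.5 to 135, the endothelial sum 77.7 to 86.2, the lymphocyte sum 0.988 to 1.24 and the cholangiocyte and progenitor sum 4.37 to 9.46, beside the 6 h and Normal values given above, and their part in these changes was not tested.

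**Figure D3:**
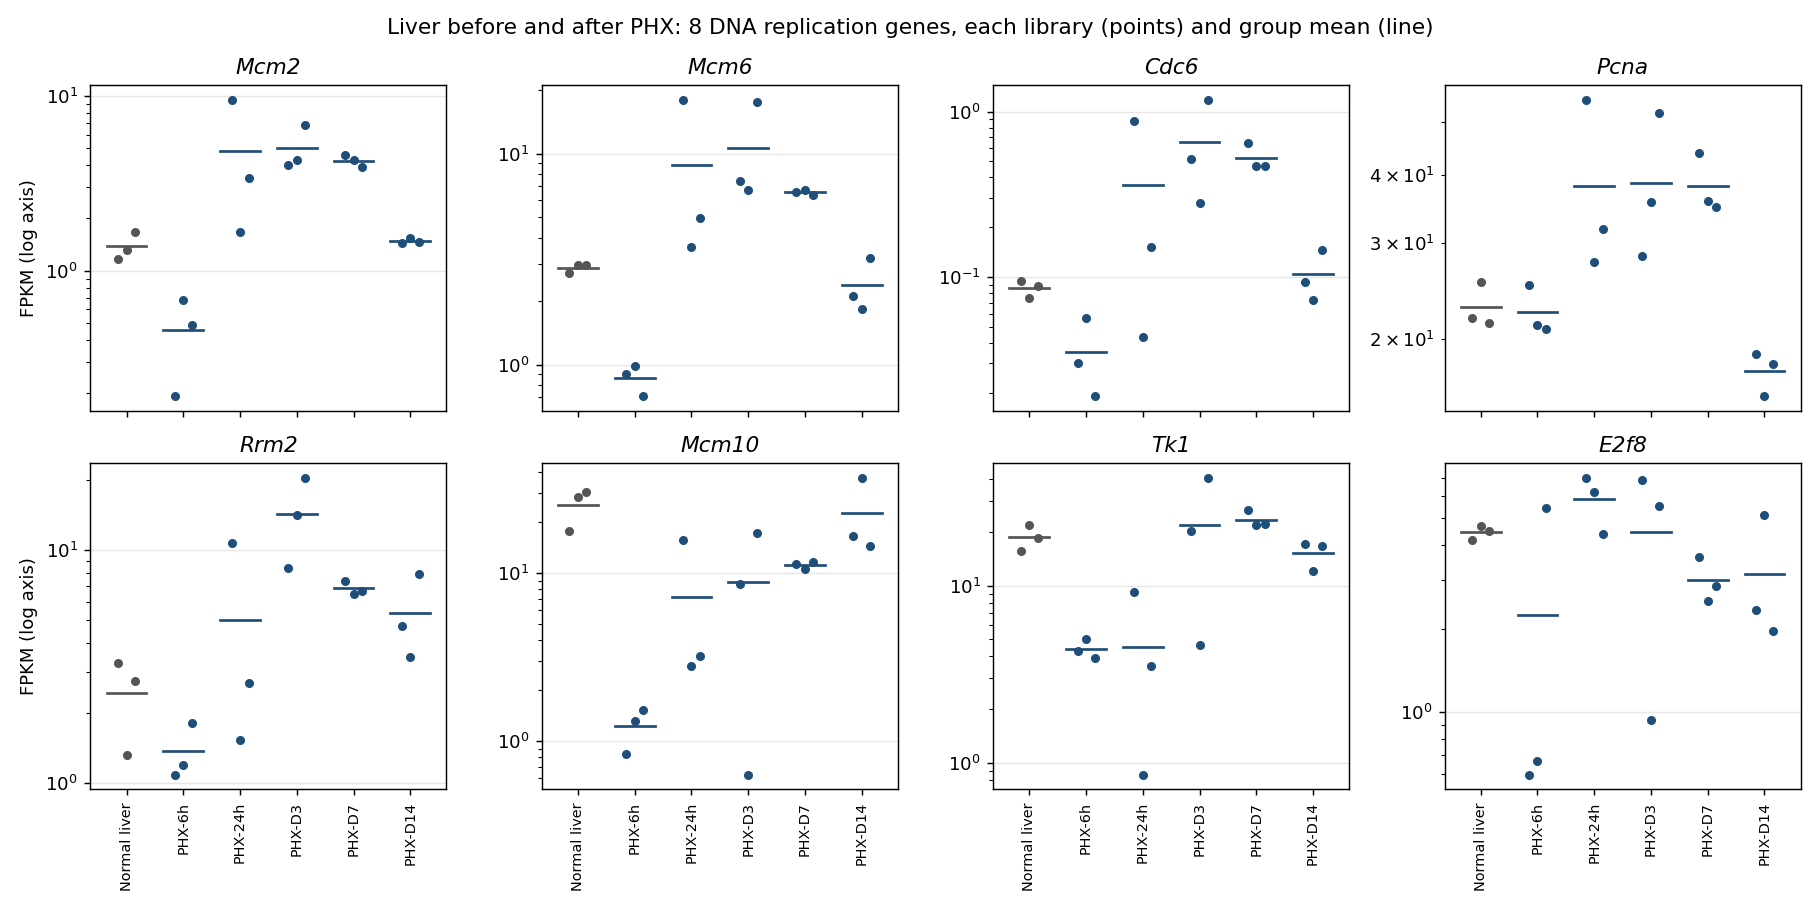
FPKM (log axis) of 8 DNA replication genes in the 18 liver libraries, with a point for each library and a line at each group mean. Mcm2, Mcm6 and Cdc6 were lowest at 6 h and spread widely at 24 h, and Mcm10 had its highest group mean in Normal liver.

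At D3 after PHX 9 members were above Normal liver, against 3.33% of all genes, and Mcm10 was below it, against 2.49%. The members' median change was 0.64 beside 0.01 for all genes, and the same counts were reached after quantile normalization. All 3 libraries at D3 lay above all 3 of Normal liver for 23 of the 40 members, against 20.2% of all genes. Rrm2 was 3.27, 1.32 and 2.76 FPKM in Normal liver and 8.42, 14.2 and 20.4 at D3 (log2 change 2.12, SE 0.444, adjusted p = 0.00324 by limma). Gins2 was 4.01, 5.47 and 7.41 FPKM (log2 change 1.85, SE 0.250, adjusted p = 2.2e-04 by limma), Mcm5 5.15, 5.22 and 10.7 (log2 change 1.52, SE 0.360, adjusted p = 0.00664 by limma) and Mcm6 7.45, 6.75 and 17.6 (log2 change 1.46, SE 0.398, adjusted p = 0.0141 by limma). Each of their D3 libraries was above the Normal range. The other 5 were Chaf1b, Lig1, Mcm2, Rrm1 and Uhrf1, with changes of 1.15 to 1.56. Replicate 3 had the highest value of its group for 39 of the 40 members, and without it 7 were called. Replicate 2 had the lowest value of its group for 22 members and replicate 1 for 18. Shares of all genes highest or lowest in these libraries were not taken.

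Mcm10, Tk1 and E2f8 split the D3 group. Mcm10 was 8.66, 0.631 and 17.4 FPKM, Tk1 20.5, 4.64 and 40.5 and E2f8 6.87, 0.940 and 5.54 in the 3 libraries. Replicate 2 was the low library each time, while it was not low for Rrm2, Gins2 or Mcm5. That library had the lowest hepatocyte marker sum of the group (34653 FPKM, beside 45848 and 67577) and the highest macrophage (364), stellate cell (196) and red blood cell (302) marker sums. Its cholangiocyte and progenitor sum was also the highest (15.2, beside 3.85 and 2.77). The part of these markers was not tested. Over the group the sums were 138 to 364 for macrophage, 62.4 to 196 for stellate cell and 38.4 to 302 for red blood cell markers. Endothelial markers summed to 67.4 to 95.2 and cholangiocyte and progenitor markers to 2.77 to 15.2. Tk1 rose between 24 h and D3 (log2 change 1.96, SE 0.581, adjusted p = 0.0244 by limma), as did Rrm2 (1.60), against 2.07% of all genes. Afmid, which overlaps Tk1, was 2.76 to 11.8 FPKM at 24 h and 34.4, 2.75 and 61.6 in replicates 1, 2 and 3 at D3, and its part in the Tk1 values was not tested. Without replicate 1 at 24 h, 15 members rose between these times. Leaving out replicate 2 or 3 at 24 h or replicate 3 at D3 left none.

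The timing of replication and mitosis genes was set side by side. Of the mitosis list 15 genes were tested. Of these 14 rose from 24 h to D3 and of the 35 members 2, against 2.07% of all genes, and the difference between the lists was not tested. The count of members ran from 0 to 15 as single libraries were left out. The summed FPKM of the mitosis genes was 38.5 to 43.4 in Normal liver, 11.4 to 16.0 at 6 h, 13.9 to 27.9 at 24 h and 39.1 to 134 at D3. The members' sums at these times were 146 to 168, 66.3 to 66.7, 106 to 306 and 182 to 342. Of the other replication genes 5 of 50 tested rose at D3, against 3.33% of all genes, and 3 after quantile normalization, against 3.15%. The 5 were led by Top2a (1.97, SE 0.308, adjusted p = 5.0e-04 by limma), Ccna2 (1.70) and Dbf4 (1.15).

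**Figure D4:**
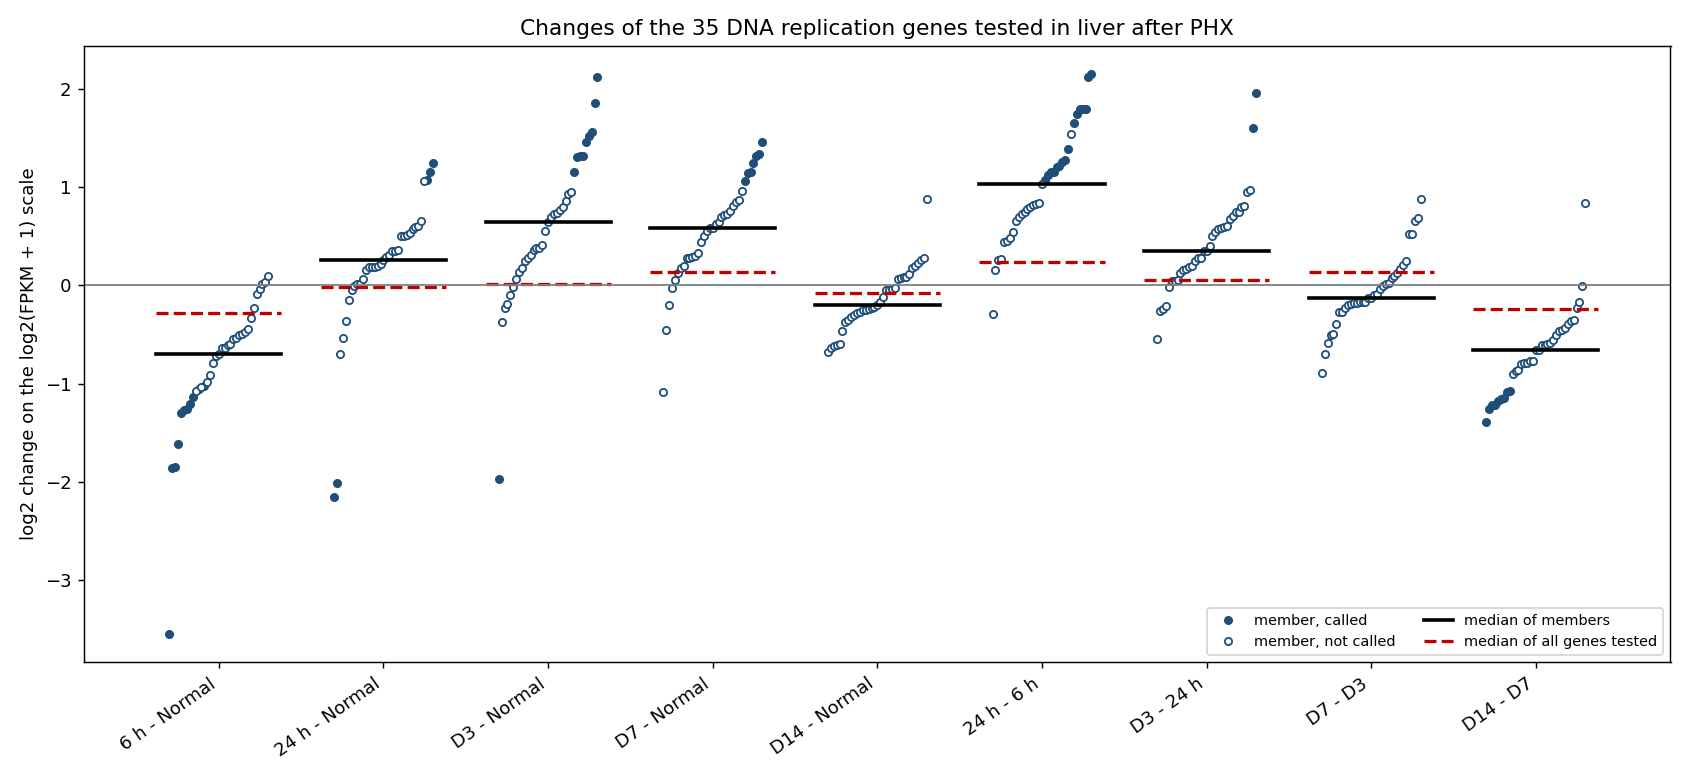
Change of each of the 35 genes tested on the log2(FPKM + 1) scale (points, filled where called) in 9 comparisons of the liver table, with the median of the members (black) and of all 11114 genes tested (red dashes). The members' median was below that of all genes at 6 h (-0.70 and -0.28) and above it at D3 (0.64 and 0.01).

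At D7 7 members were above Normal liver, against 7.81% of all genes, with a median of 0.58 beside 0.13, and 3 after quantile normalization, against 5.22%: Gins2, Lig1 and Uhrf1. Without replicate 1 or 2 at D7 or replicate 2 of Normal liver 3 were called, and without replicate 1 of Normal liver 4. Lig1 was 0.926, 1.21 and 1.28 FPKM in Normal liver and 4.65, 4.60 and 3.82 at D7 (log2 change 1.32, SE 0.267, adjusted p = 0.00155 by limma). Uhrf1 was 0.408, 0.245 and 0.296 and 3.35, 2.16 and 2.45 FPKM (log2 change 1.46, SE 0.385, adjusted p = 0.00972 by limma). All D7 libraries were above all Normal ones for 28 members, against 39.0% of all genes. At the same time the macrophage marker sum was 768 to 1111 FPKM (125 to 212 in Normal liver), the lymphocyte sum 20.4 to 22.9 (2.15 to 3.76), the red blood cell sum 235 to 307 (87.1 to 149), the endothelial sum 143 to 220 (110 to 116), the stellate cell sum 85.1 to 140 (59.9 to 77.1) and the hepatocyte sum 39577 to 45953 (52930 to 57844). The cholangiocyte and progenitor sum was 4.16 to 8.64 (3.44 to 3.67). The part of these markers in the D7 values was not tested. From D3 to D7 no member fell by limma, against 1.31% of all genes, with 3 of 35 at an unadjusted p under 0.05 in either direction, none lower by the voom fit and Rrm2 alone after quantile normalization.

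At D14 after PHX no member was lower than Normal liver by limma, against 2% of all genes, 4 of 35 had an unadjusted p under 0.05 in either direction, and the voom fit called none. From D7 to D14 9 members fell, against 7.35% of all genes, with a median of -0.66 beside -0.24: Gins2, Gmnn, Lig1, Mcm2, Mcm3, Mcm5, Mcm6, Pcna and Uhrf1. Pcna was 43.9, 35.9 and 35 FPKM at D7 and 18.8, 15.7 and 18.0 at D14 (log2 change -1.08, SE 0.226, adjusted p = 0.00213 by limma), the latter under its Normal range of 21.4 to 25.5. Gmnn was 14.6, 10.6 and 12.3 and 5.11, 3.71 and 5.66 FPKM (log2 change -1.22, SE 0.319, adjusted p = 0.00970 by limma). Macrophage markers summed to 768 to 1111 FPKM at D7 and 82.8 to 107 at D14, lymphocyte markers to 20.4 to 22.9 and 4.16 to 4.64, endothelial markers to 143 to 220 and 68.7 to 85.9, red blood cell markers to 235 to 307 and 83.3 to 111, and stellate cell markers to 85.1 to 140 and 30.7 to 48.4. Hepatocyte markers went the other way, from 39577 to 45953 at D7 to 50946 to 60699 at D14. Cholangiocyte and progenitor markers summed to 4.16 to 8.64 and 5.63 to 8.92. The part of these markers in the falls was not tested. The voom fit called 16 lower and the pseudocount of 0.1 14. After quantile normalization none was called, and without replicate 1 at D7 2 were and without replicate 2 at D14 4. Mcm10 was 11.3, 10.5 and 11.7 FPKM at D7 and 16.7, 36.7 and 14.5 at D14, and its D14 range took in the Normal values. The 11 genes called in no liver comparison were Cdc45, Chaf1a, Dnmt1, E2f2, Fen1, Gins4, Mcm4, Orc6, Pola1, Pold1 and Tyms. The share of all genes called in no liver comparison was not taken.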

How the data were processed

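RNA-seq was made by the authors from 33 cell and 18 liver libraries, and the deposited values are FPKM per gene symbol. The submitters' processing notes name TopHat 1.4.1, Cufflinks 1.3.0 and mm10. Strand use and filters are not given in the sources used here. Depth was recovered from the steps between low values: 99.98% of genes above 0 for the cells and 99.92% for the livers came out as whole reads, which gave 49.3 to 88.9 and 52.1 to 79.3 M (mega) reads a library, a unit that may be a read or a read pair since the sources used here do not say. A separate table of a day 7 culture held none of the 40 genes and was not used here, and no column was without a sample.

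Values were tested on log2(FPKM + 1) with limma 3.58.1 (R 4.3.3, eBayes with trend), 1 fit per table, over genes at 1 FPKM or more in 3 libraries (12328 and 11114), with Benjamini-Hochberg adjustment over all of them. A gene was called at an adjusted p under 0.05 and at least 2-fold. A fold change on this scale understates that of low genes. On simulated data with 200 genes changed 4-fold the fit found 200 for D3 against Hepatocytes (0 wrong calls) and 186 for PHX-D3 against Normal liver (5 wrong). Gene positions came from GENCODE M21 and promoters from RefSeq GRCm38.p6. The alternatives run were no filter, a pseudocount of 0.1, a 5 FPKM filter, quantile normalization, no fold limit, limma voom on the recovered reads, a replicate block and leaving out each library. Shares of all genes called are given for the main fit and after quantile normalization. They do not apply to member counts from the other alternatives.

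The members and lists were chosen with earlier results of these data known. All 40 members were described by role. Of the 60 other replication genes the 3 largest rises and falls past the threshold were named, in the mean of the 4 passaged groups and at PHX-D3. The comparisons of the P10 lines with D14, the reads of overlapping and Y-linked genes, the split by promoter word and the shares of all genes with a pattern over several groups were added after values were seen. Replicates differed beyond sampling noise (chi-square per gene of at least 6.05), so none was counted as a duplicate.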

Additional observations from a re-analysis of the deposited data

Results flagged for a closer look

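The maturation change of mouse-1 differed between passages. For 40 of 40 members the change from IL6-iHPCs to IL6-iMHs was more negative at P35 than at P10 by the limma interaction contrast, against 24.1% of all genes tested, with a median difference of -3.11 on the log2(FPKM + 1) scale. At P10 the change itself was above 0 for 12 of them. The IL6-iHPC libraries used are those of the P35 against P10 comparison, where all 40 members were higher at P35 (median 3.14). The difference in maturation change therefore largely restates that starting level. The 2 passages are 1 line of 1 mouse, sampled as technical repeats, so passage and culture batch cannot be told apart.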

How the results depend on the processing

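Low members (Orc1, Cdc6 and E2f7 in Hepatocytes, from 2 to 16 reads) are those whose fold is least precise. Calls near the hepatocyte level depended on scaling and on the fold limit, while the counts for the IL6-iHPCs of clone-1 (P20) and mouse-1 (P35) against Hepatocytes, and for their IL6-iMHs against these IL6-iHPCs, stayed within 1.5 times the reported ones under all alternatives run. Counts for the same IL6-iMHs against Hepatocytes did not. No causes were tested. The day 7 table holds no member, so its alternatives were not run.

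Under quantile normalization the members called numbered 7 higher for D3 against Hepatocytes, 3 higher for D14 against Hepatocytes, 1 higher for iHPCs-mouse-1 (P10) against Hepatocytes, 6 higher for iHPCs-mouse-2 (P10) against Hepatocytes, 1 higher for iHPCs-mouse-2 (P10) against iHPCs-mouse-1 (P10) and 1 lower for iHPCs-mouse-1 (P10) against D14. Under quantile normalization there were also 0 lower for iMHs-mouse-1 (P10) against iHPCs-mouse-1 (P10), 2 higher for iMHs-mouse-2 (P10) against Hepatocytes, 5 higher for iMHs-clone-1 (P20) against Hepatocytes, 3 higher for iMHs-mouse-1 (P35) against Hepatocytes, 18 higher for the mean of the 4 passaged iHPC groups against Hepatocytes and 5 lower for PHX-6h against Normal. Under quantile normalization there were also 3 higher for PHX-D7 against Normal, 8 higher for PHX-24h against PHX-6h, 1 lower for PHX-D7 against PHX-D3 and 0 lower for PHX-D14 against PHX-D7. With a pseudocount of 0.1 the members called numbered 7 lower for D14 against D3, 17 higher for iHPCs-mouse-1 (P10) against Hepatocytes, 25 higher for iHPCs-mouse-2 (P10) against Hepatocytes, 7 higher for iHPCs-mouse-2 (P10) against iHPCs-mouse-1 (P10), 20 lower for iHPCs-mouse-1 (P10) against D14 and 3 lower for iHPCs-mouse-2 (P10) against D14. With a pseudocount of 0.1 there were also 8 lower for iMHs-mouse-1 (P10) against iHPCs-mouse-1 (P10), 16 lower for iMHs-mouse-2 (P10) against iHPCs-mouse-2 (P10), 10 higher for iMHs-mouse-1 (P10) against Hepatocytes, 9 higher for iMHs-mouse-2 (P10) against Hepatocytes, 23 higher for iMHs-clone-1 (P20) against Hepatocytes, 21 lower for PHX-6h against Normal and 14 lower for PHX-D14 against PHX-D7. With limma voom on the recovered reads the members called numbered 7 lower for D14 against D3, 19 higher for iHPCs-mouse-1 (P10) against Hepatocytes, 25 higher for iHPCs-mouse-2 (P10) against Hepatocytes, 7 higher for iHPCs-mouse-2 (P10) against iHPCs-mouse-1 (P10), 20 lower for iHPCs-mouse-1 (P10) against D14 and 4 lower for iHPCs-mouse-2 (P10) against D14. With limma voom on the recovered reads there were also 10 lower for iMHs-mouse-1 (P10) against iHPCs-mouse-1 (P10), 17 lower for iMHs-mouse-2 (P10) against iHPCs-mouse-2 (P10), 14 higher for iMHs-mouse-1 (P10) against Hepatocytes, 13 higher for iMHs-mouse-2 (P10) against Hepatocytes, 25 higher for iMHs-clone-1 (P20) against Hepatocytes and 16 higher for iMHs-mouse-1 (P35) against Hepatocytes. With limma voom on the recovered reads there were also 21 lower for PHX-6h against Normal, 6 higher for PHX-D3 against PHX-24h and 16 lower for PHX-D14 against PHX-D7. With no fold limit the members called numbered 32 lower for D14 against D3, 25 higher for iHPCs-mouse-1 (P10) against Hepatocytes, 28 higher for iHPCs-mouse-2 (P10) against Hepatocytes, 31 higher for iHPCs-mouse-2 (P10) against iHPCs-mouse-1 (P10), 36 lower for iHPCs-mouse-1 (P10) against D14 and 28 lower for iHPCs-mouse-2 (P10) against D14. With no fold limit there were also 18 lower for iMHs-mouse-1 (P10) against iHPCs-mouse-1 (P10), 31 lower for iMHs-mouse-2 (P10) against iHPCs-mouse-2 (P10), 21 higher for iMHs-mouse-1 (P10) against Hepatocytes, 25 higher for iMHs-mouse-2 (P10) against Hepatocytes, 29 higher for iMHs-clone-1 (P20) against Hepatocytes and 20 higher for iMHs-mouse-1 (P35) against Hepatocytes. With no fold limit there were also 18 lower for PHX-6h against Normal, 14 higher for PHX-D3 against Normal, 11 higher for PHX-D7 against Normal, 2 lower for PHX-D14 against Normal, 5 higher for PHX-D3 against PHX-24h and 16 lower for PHX-D14 against PHX-D7. With a filter of 5 FPKM the members called numbered 5 higher for PHX-D3 against Normal, 3 higher for PHX-D7 against Normal and 10 higher for PHX-24h against PHX-6h. Among members called in the main fit, the sign of the log2 change turned under quantile normalization as follows. For D3 against Hepatocytes it turned for Cdc45 (-0.21), Gmnn (-0.29), Mcm5 (-0.37), Orc6 (-0.10), Pola2 (-0.13) and Prim1 (-0.10). For D14 against Hepatocytes it turned for Orc6 (-0.07), Pola2 (-0.08) and Rfc3 (-0.20). For iHPCs-mouse-2 (P10) against Hepatocytes it turned for Cdt1 (-0.15), Chaf1a (-0.01), Mcm3 (-0.05) and Rrm1 (-0.05). For the mean of the 4 passaged iHPC groups against Hepatocytes it turned for E2f1 (-0.08), Rfc3 (-0.03) and Rfc4 (-0.18). Some members above 0 but not called in the main fit were called lower than in Hepatocytes after quantile normalization. These included Gins1 at D3, E2f1 and Prim1 at D14 and Prim1 in mouse-2 (P10). Leaving out each library in turn gave 1 to 3 higher for iHPCs-mouse-2 (P10) against iHPCs-mouse-1 (P10), 0 to 1 lower for iHPCs-mouse-2 (P10) against D14, 0 to 4 higher for PHX-24h against Normal, 3 to 7 higher for PHX-D7 against Normal, 8 to 21 higher for PHX-24h against PHX-6h, 0 to 15 higher for PHX-D3 against PHX-24h and 2 to 9 lower for PHX-D14 against PHX-D7, and every other count stayed within 1.5 times its reported value. An E2F word stood within 100 bases of the start for 11.8% of the 34 members with a promoter entry. Replicate numbers were not treated as pairs. Same-numbered libraries of different groups deviated together at a median r of -0.016 for cells and -0.055 for livers. For other numbers the medians were 0.016 and 0.017. Single same-numbered pairs ran from -0.54 to 0.57 for cells and from -0.3 to 0.39 for livers. They were over 0.1 in 33 of 165 and 7 of 45 pairs. Whether some groups shared a batch was not tested. With the replicate block the count from 6 h to 24 h was 15 in place of 16 while the other counts were those reported.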
